A study of Mus musculus with 58 samples.

Results

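Overexpressed PSPC1 had 2324 chromatin sites in mouse embryonic stem cells that appeared in the peak list of no other library. These sites were chosen by the measured peak positions. The peaks of 9 chromatin immunoprecipitation (ChIP-seq) lists were merged wherever they shared at least 1 bp, and a site was kept if its merged region held a peak of overexpressed PSPC1 and none from the other 8 lists. They made up 2324 of the 67384 merged regions of the study, and 2324 of the 22785 peaks of overexpressed PSPC1 (10.2%, 95% Wilson interval 9.81 to 10.6%). Each site held exactly 1 peak, called an exclusive peak below, and the other 20461 peaks of the same list are called shared peaks. Of the shared peaks, 12789 lay in a region with a knock-in PSPC1 peak and 7672 lay in regions that held other proteins alone.

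PSPC1 is an RNA-binding protein of the DBHS family, whose members also include SFPQ and NONO. These proteins form dimers, bind RNA and DNA, and are core components of paraspeckles, nuclear bodies built on the long noncoding RNA Neat1. Outside paraspeckles they are found at transcribed genes, and the series addressed RNA polymerase II occupancy and transcription with and without PSPC1. The level of the overexpressed protein relative to the endogenous one was not analysed here.

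The exclusive peaks come from 1 library, labelled PSPC1-OE-ChIP, of untreated FB(OE)-PSPC1 cells made from BirA J1 mouse embryonic stem cells (strain 129/Ola). These cells were fixed with 1% formaldehyde and precipitated with 5 µg of a FLAG antibody. It was set against 2 libraries of AID-FB(KI)-PSPC1, tagged at its own gene in CJ9 cells and fixed with 3% formaldehyde, and against 1 library each of FB(OE)-CIRH1A, FB(OE)-UTP3 and FB(OE)-UTP6 (3% formaldehyde) and of FB(OE)-hnRNPU, FB(OE)-SAFB and FB(OE)-SAFB2 (2 mM DSP, a protein crosslinker, then 1% formaldehyde, with DNase I digestion and an added streptavidin purification). All cells were untreated, of the same strain, and precipitated with a FLAG antibody. CIRH1A, UTP3 and UTP6 are ribosome biogenesis factors, and hnRNPU, SAFB and SAFB2 are RNA-binding proteins of the nuclear matrix. Among the 9 libraries, fixation with 1% formaldehyde and no other crosslinker was used for PSPC1-OE-ChIP alone, and knock-in and overexpressed PSPC1 differed in parental line, so these factors and the form of the protein cannot be told apart here. The FB(OE) cells are not described as lacking their own PSPC1 gene, and the labels do not say whether a line was 1 clone. With 1 library of overexpressed PSPC1 no test between conditions was possible. Intervals cover counting error only, since peaks of 1 library are not replicates. A control list of cells without a tag was not analysed here.

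The exclusive share of the overexpressed PSPC1 list was low beside that of most lists. By the same rule, 27.7% of the peaks of knock-in replicate 1 and 27.0% of replicate 2 were found in no other list. SAFB had 34.8%, UTP6 33.1%, hnRNPU 20.3% and SAFB2 18.3%. Only UTP3, with 2.75%, and CIRH1A, with 2.20%, were below the 10.2% of overexpressed PSPC1. The list lengths differed from 6670 to 40217 peaks, and the knock-in lists reached down to a score of 30.0 where the PSPC1-OE-ChIP list stopped at 50.0, so these shares describe the lists as deposited.

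One list decided much of the membership. When the UTP6 list, the longest, was left out, the number of exclusive sites rose from 2324 to 4512 (19.8%). Of the 2645 overexpressed PSPC1 peaks that shared their region with exactly 1 other list, 2014 (76.1%) shared it with UTP6, 244 with knock-in replicate 2, 148 with knock-in replicate 1 and 127 with hnRNPU. UTP3 accounted for 42, SAFB for 30, CIRH1A for 23 and SAFB2 for 17. Leaving out a knock-in library moved the count of exclusive sites to 2522 without replicate 1 and 2623 without replicate 2.

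In every list, exclusive peaks were fewer among the high scores. The score is the authors' own value per peak, with no stated unit, and was used within a list. In the PSPC1-OE-ChIP list 19.3% of the lowest score quartile (18.3 to 20.4%) was exclusive, followed by 10.6%, 6.11% and 4.77% (4.25 to 5.36%) in the highest. The decline was steeper in the knock-in lists, from 52.0 to 1.45% in replicate 1 and from 51.3 to 1.83% in replicate 2. SAFB kept 24.2% in its highest quartile, the largest value of the 9 lists.

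**Figure D1:**
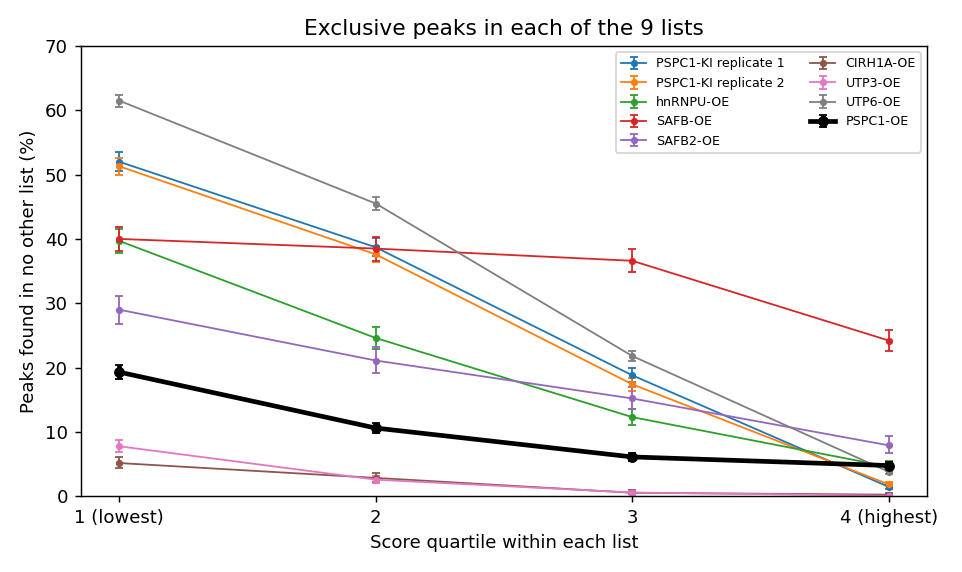
Share of peaks found in no other list (%, vertical axis) in each score quartile (horizontal axis) of each of the 9 lists, with Wilson 95% intervals. The overexpressed PSPC1 line, in black, runs from 19.3 to 4.77%, between the lines of UTP3 and CIRH1A below it and those of SAFB and SAFB2 above it. The lines of knock-in replicates 1 and 2, hnRNPU and UTP6 start above it and end below it, at 1.45, 1.83, 4.59 and 3.79%.

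The exclusive peaks were weak and narrow as a group. Their median score was 62.9 (order-statistic 95% interval 62.0 to 64.0), against 91.9 (90.9 to 92.9) for shared peaks. Scores of exclusive peaks ran from 50.0 to 1793.3, with quartiles at 54.4 and 91.6, and 43.0% of them were under 60, against 19.7% of the shared peaks. A score of at least 100 was reached by 505 exclusive peaks (21.7%) and by 45.0% of the shared ones. A score of at least 500 was reached by 2.07% of the exclusive peaks (1.56 to 2.73%) and by 3.31% of the shared ones (3.08 to 3.57%). None of the exclusive peaks, 10.2% of the list, was among the 10 peaks with its highest score, 3100, a number too small to read as a difference. The median width was 203 bp (199 to 207), against 345 bp (342 to 348). Widths of exclusive peaks ran from 73 to 5869 bp, with quartiles at 171 and 262 bp. Peaks narrower than 200 bp, the lower end of the fragment size in the labels' sonication protocol (200 to 500 bp), made up 48.1% of the exclusive peaks (46.1 to 50.2%) and 12.5% of the shared ones. Such narrow peaks were almost confined to this library: the PSPC1-OE-ChIP list held 3672 of them, the CIRH1A list 1, and the remaining 7 lists 0. With scores of at least 100 in all lists, which also changes the membership, 1253 sites were exclusive, with a median width of 346 bp and a median score of 139.7, and 505 of them were among the 2324.

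Exclusive peaks were the end of a gradient. Peaks of overexpressed PSPC1 that shared their region with 1 other list had a median width of 244 bp and a median score of 67.7. With 2 other lists these were 297 bp and 78.7, with 4 they were 378 bp and 99.6, and with 6 they were 462 bp and 130.6. Beyond that the widths stopped growing, at 428 bp for 7 and 416 bp for all 8 other lists, which 156 peaks reached. Exclusive peaks were narrower than shared ones in all 9 lists. Part of these width differences can follow from the rule, because a wider peak has more room to share 1 bp with another list. The ratio of the median widths was 0.588 for overexpressed PSPC1 and between 0.638 and 0.790 in the other 8 lists, and the ratio of the median scores, 0.684, lay inside the range of the other 8, 0.522 to 0.909.

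**Figure D2:**
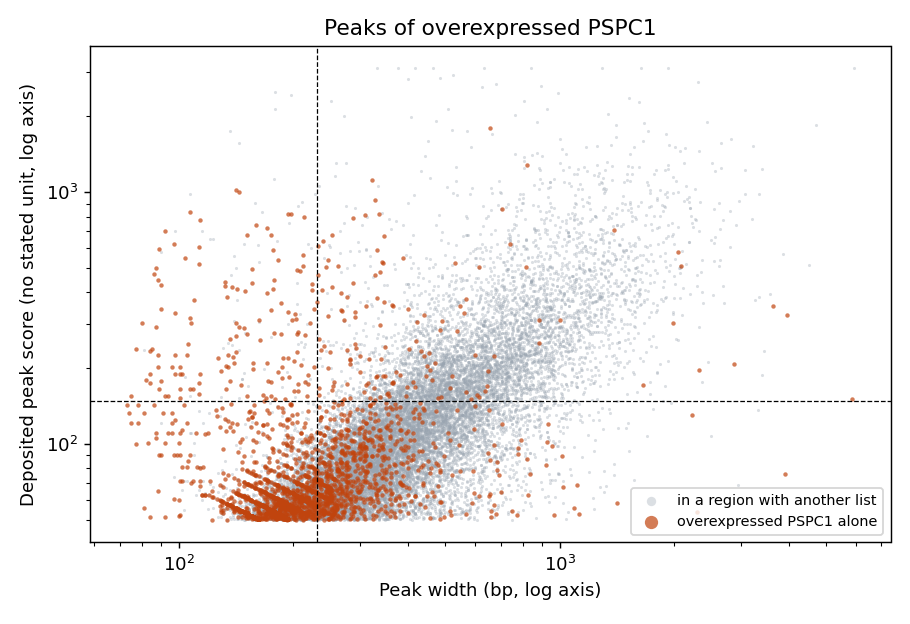
Score (vertical, log axis, no stated unit) against width (horizontal, bp, log axis) of the 22785 overexpressed PSPC1 peaks, with the 2324 exclusive peaks in orange and the shared ones in grey. Dashed lines mark the lowest width quartile (230 bp) and the highest score quartile (148.4), and the upper left corner they bound holds 197 peaks, of which 136 are exclusive.

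Width and score together separated the exclusive peaks more sharply than either did, and in a direction that the score alone did not show. The following corner of the list was picked after its values were seen and is a description. Among peaks in the narrowest width quartile, under 230 bp, the exclusive share was 24.5% in the lowest score quartile and 20.7% in the next, and then increased to 43.1% (37.5 to 48.9%) and 69.0% (62.3 to 75.1%) toward the highest scores. In the widest quartile, 496 bp and more, it went the other way, from 13.2% in the lowest to 0.862% (0.621 to 1.20%) in the highest score quartile. The corner of narrow peaks with scores of at least 148.4 held 136 exclusive peaks of 197. They lay on 22 chromosomes and unplaced sequences, with 22 of the 136 on chrUn_random, as were 5 of the 61 shared peaks of this corner. That sequence held 7.23% of all exclusive peaks and 1.04% of the whole list. The width of the 136 exclusive peaks ran from 75 to 227 bp with a median of 145 bp. Their scores ran from 148.4 to 1020.2 with a median of 253.1. Their median distance to a knock-in peak was 86540 bp (64015 to 116397). For the 61 shared peaks of this corner, some of them in a region with a knock-in peak, it was 46366 bp (2263 to 73248), and the intervals overlapped.

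A corner set in the same way in the other 8 lists, with the quartiles of each list, had an exclusive share of 0 to 28.9%. The highest was in SAFB, followed by hnRNPU with 25.4% (20.3 to 31.3%). Over all their peaks SAFB had 34.8% and hnRNPU 20.3%, against 10.2% for overexpressed PSPC1. The shortest peaks of the other 8 lists measured 193 to 409 bp, so these corners were not matched in width with that of overexpressed PSPC1. The knock-in lists had 43 and 42 peaks in that corner, of which 2 and 1 were exclusive. Of the 61 narrow, high-scoring peaks of overexpressed PSPC1 that were shared, 48 (78.7%) shared their region with hnRNPU and 27 (44.3%) with UTP6. Over all shared peaks the order was the reverse, 34.4% for hnRNPU and 91.1% for UTP6. UTP3 accounted for 25 of the 61 (41.0%, against 53.2% of all shared peaks) and CIRH1A for 22 (36.1%, against 39.8%). Knock-in replicate 1 accounted for 19 (31.1%, against 46.4%) and replicate 2 for 16 (26.2%, against 56.3%). SAFB2 accounted for 18 (29.5%, against 11.2%) and SAFB for 11 (18.0%, against 16.1%). hnRNPU was, with SAFB and SAFB2, fixed with 1% formaldehyde after DSP, digested with DNase I and purified on streptavidin. The part of these steps in this pattern was not tested.

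**Figure D3:**
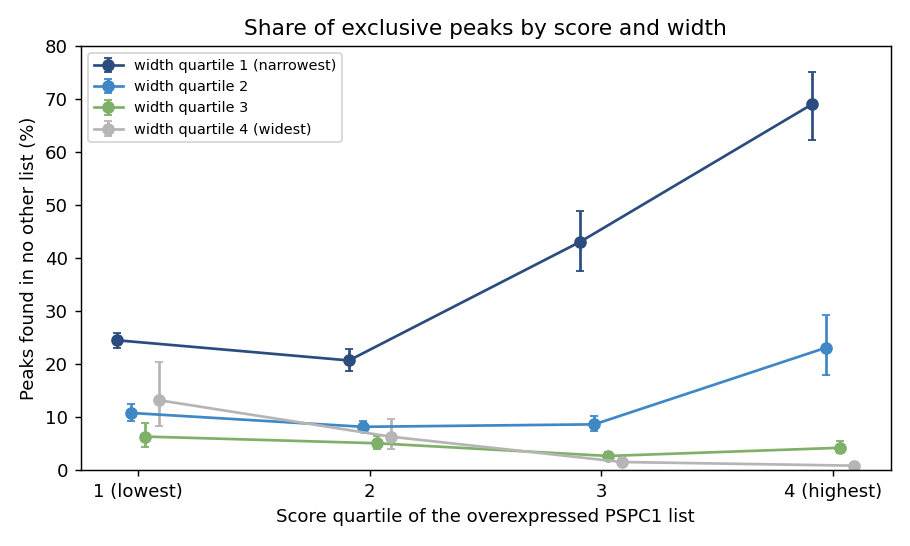
Share of overexpressed PSPC1 peaks found in no other list (%, vertical axis) by score quartile (horizontal axis), 1 line per width quartile, with Wilson 95% intervals. The line of the narrowest peaks climbs to 69.0% at the highest scores, while that of the widest falls to 0.862%.

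The 10 exclusive peaks with the highest scores are given with positions in the mm9 assembly, counted from 1. The strongest lay at chr12:75904847-75905504, 658 bp wide, with a score of 1793.3 that ranked 38 in the whole list. The nearest knock-in peak was 371597 bp away and the nearest peak of any other list, from UTP6, 84657 bp away. The second lay on the same chromosome, at chr12:68160088-68160907, with a score of 1277.4, a width of 820 bp and no knock-in peak within 159376 bp. Behind it came chr3:56379361-56379682, with a score of 1121.3 and a width of 322 bp, at 203006 bp from a knock-in peak. These 3 stood far from knock-in PSPC1 and were wider than the typical exclusive peak.

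The fourth, chr1:58670744-58670884, was 141 bp wide, scored 1020.2 and lay 9810 bp from a peak of knock-in replicate 2. Next came chr14:91310964-91311107 with a score of 998.4 and a width of 144 bp, 368168 bp from a knock-in peak. On the unplaced sequence chrUn_random lay the sixth (3558950 to 3559276, score 934.5) and the seventh (5262711 to 5263417, score 857.7). The list closed with chr18:43073569-43073675 (score 832.8, 107 bp wide), chr3:21597271-21597467 (score 820.6, 197 bp wide) and chr4_random from 143027 to 143361 (score 816.9). Of these 10 peaks, 4 were narrower than 200 bp, 5 were more than 100 kb from a knock-in peak, and 3 lay on chrUn_random or chr4_random. Of all exclusive peaks, 48.1% were narrower than 200 bp and 77.1% lay within 100 kb of a knock-in peak. On chrUn_random lay 7.23% of them and on chr4_random 0.0861%.

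Few exclusive peaks were wide, and 3 of the 5 widest lay close together on chromosome 8. At least 1000 bp was reached by 20 exclusive peaks (0.861%), against 5.19% of shared peaks. The widest, chr8:20015917-20021785, measured 5869 bp with a score of 151.3. Those that followed, chr8:19891557-19895517 (3961 bp, score 324.0) and chr8:19788249-19792150 (3902 bp, score 75.7), lay within the same stretch of chromosome 8. They were 251774 to 479442 bp from the nearest knock-in peak, while peaks of UTP3 or UTP6 were 970 to 11058 bp away. The fourth and the fifth were chr11:3090820-3094444 (3625 bp, score 354.5) and chr6:47604728-47607590 (2863 bp, score 208.2).

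The distance from exclusive peaks to knock-in PSPC1 varied widely. Its median to the nearest peak of either knock-in list was 29012 bp (26260 to 31259, 2323 peaks), and 1 exclusive peak lay on a sequence with no knock-in peak. To replicate 1 alone the median was 50138 bp and to replicate 2 37813 bp. A knock-in peak was within 1 kb of 4.48% of the exclusive peaks (3.71 to 5.40%), within 10 kb of 28.2% (26.4 to 30.1%) and within 100 kb of 77.1% (75.3 to 78.7%). Knock-in peaks flanked 122 of them within 10 kb on both sides. With scores of at least 50 in all lists, which removes low-scoring knock-in peaks alone, the median distance was 51671 bp, and without knock-in replicate 2 it was 43978 bp, both longer by over 1.5 times.

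These distances were set beside those of the 7672 overexpressed PSPC1 peaks that shared a region with other proteins and had no knock-in peak. Their median distance was 30744 bp (29517 to 31991, 7669 peaks), and its interval overlapped that of the exclusive peaks. Within 50 kb the shares were 61.7% for exclusive peaks and 61.8% for the comparison peaks, and within 100 kb 77.1 and 76.8%. At short range they parted, with 4.48 against 1.63% within 1 kb and 17.1 against 12.1% within 5 kb. Part of that gap can follow from the rule, because a comparison region also contained the wider peak of another list. A knock-in peak touching that wider peak moved the region out of the class. In distance to knock-in PSPC1 the exclusive sites were therefore close to other overexpressed PSPC1 sites without a knock-in peak beyond about 50 kb, and the difference at short range was not tested.

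**Figure D4:**
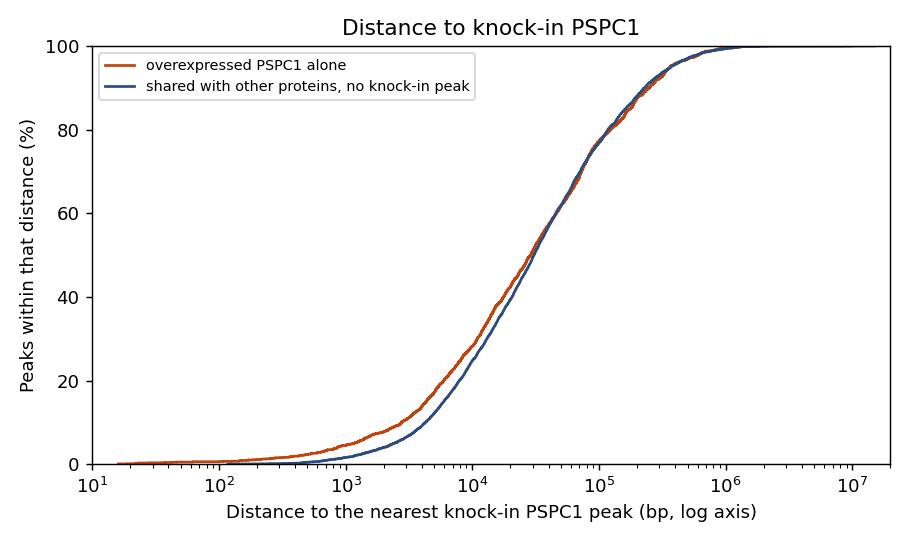
Cumulative share of peaks (%, vertical axis) by distance to the nearest knock-in PSPC1 peak (bp, horizontal log axis) for exclusive peaks (orange) and for overexpressed PSPC1 peaks shared with other proteins but not with knock-in PSPC1 (blue). The curves part at short distances, 28.2 against 24.7% at 10 kb, and meet by 50 kb at 61.7 and 61.8%.

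Exclusive peaks far from knock-in PSPC1 were narrower than those near it. The 104 exclusive peaks within 1 kb of a knock-in peak had a median width of 245 bp (218 to 265), the 551 between 1 and 10 kb 227 bp (219 to 237), the 1135 between 10 and 100 kb 200 bp (194 to 205), and the 533 beyond 100 kb 186 bp (182 to 191). Their median scores differed less, from 60.8 (57.7 to 64.9) within 1 kb to 68.4 (64.2 to 72.2) beyond 100 kb. The farthest exclusive peak was on chrY_random, from 49793538 to 49793847, with a score of 120.5 and a distance of 9740152 bp. Of the 5 farthest, 4 were on chrY_random, and the other was chrX:27455569-27455744 (score 54.3), at 1816521 bp. Such distances were not particular to exclusive peaks. Those shared with other proteins but not with knock-in PSPC1 reached 15087187 bp.

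A peak of any of the other 8 lists, the 2 knock-in PSPC1 lists among them, lay within 1 kb of 13.5% (12.2 to 15.0%), within 10 kb of 58.0% (56.0 to 60.0%) and within 100 kb of 96.5% (95.6 to 97.1%). The median distance was 7234 bp (6723 to 7782). UTP6 was the nearest for 939 exclusive peaks (40.4%), and it also supplied 30.1% of the peaks of the other lists. SAFB was the nearest for 12.8% with 7.97% of those peaks, while UTP3 was the nearest for 4.39% with 10.9% and CIRH1A for 3.79% with 7.26%. Within 10 kb of an exclusive peak, a UTP6 peak was found in 43.7%, a peak of knock-in replicate 2 in 23.1%, of UTP3 in 20.2%, of knock-in replicate 1 in 18.2%, of CIRH1A in 17.3%, of SAFB in 13.6%, of hnRNPU in 13.1% and of SAFB2 in 9.17%.

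The edge of the rule was close for a small number of sites. A peak of another list came within 100 bp of 47 exclusive peaks (2.02%) without sharing a base. The nearest was chr12:47920070-47920499 (score 144.8), which touched a UTP6 peak. It was followed by chrX:22458755-22458970 (score 59.5), 3 bp from a UTP6 peak, and chr18:76796203-76796418 (score 51.0), 6 bp from a SAFB peak. Just outside the rule, chr19:61300217-61300480 (score 51.9) shared 4 bp with another list, chr12:42113611-42113796 (score 52.4) shared 8 bp with UTP6, and chr3:50981818-50982201 (score 120.2) shared 9 bp with knock-in replicate 2. Adding 500 bp on each side of the peaks of the other lists left 2145 exclusive sites, and adding 5000 bp left 1402, fewer by over 1.5 times.

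Within their own list fewer exclusive than shared peaks had a close neighbour. Part of this can follow from the rule, because 1 wide peak of another list can make several neighbouring overexpressed PSPC1 peaks shared, while an exclusive region held 1 peak. Another overexpressed PSPC1 peak lay within 1 kb of 10.8% of them (9.64 to 12.2%), against 25.2% (24.6 to 25.7%) of shared peaks, 29.1% of those shared with knock-in PSPC1 and 18.6% of those shared with other proteins alone. The median gap was 21764 bp (19892 to 23948) for exclusive and 13063 bp (12600 to 13479) for shared peaks. For the peaks shared with other proteins alone it was 19262 bp (18342 to 20153), and that interval overlapped the one of the exclusive peaks.

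The exclusive share varied between chromosomes and was higher still on the unplaced sequence chrUn_random. On the 19 autosomes together 2055 of 21942 overexpressed PSPC1 peaks were exclusive (9.37%, 8.99 to 9.76%), from 7.30% on chromosome 1 to 11.8% on chromosome 18, with a median of 9.75%. The intervals of chromosome 1 (6.19 to 8.60%) and chromosome 18 (9.54 to 14.4%) did not overlap. These are the lowest and the highest of 19 autosomes, picked after the values were seen, so this is a description and not a test of variation between autosomes. Chromosome 1 also held 22.4% of all peaks of knock-in replicate 1, the highest share of any list there. On chromosome X 74 of 499 peaks were exclusive (14.8%, 12.0 to 18.2%), above the interval of the autosomes together but overlapping that of chromosome 18, and these lay farther from knock-in PSPC1, at a median of 150636 bp. Chromosome Y had 7 exclusive peaks of 14 (50.0%, 26.8 to 73.2%), with a median width of 90 bp, a median score of 121.4 and a median gap of 1396 bp to the next peak of the list.

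On chrUn_random, which collects sequence that the assembly does not place on a chromosome, 168 of 238 overexpressed PSPC1 peaks were exclusive (70.6%, 64.5 to 76.0%). That was 7.23% of all exclusive peaks, against 0.342% of the shared ones. This sequence held 1.04% of the overexpressed PSPC1 list and 0.188 to 0.712% of each of the other lists, or 238 peaks against 32 to 81. Exclusive peaks there were stronger and wider than on the autosomes, with a median score of 129.4 against 61.7 and a median width of 267 against 202 bp. Shared peaks on the same sequence had a median score of 100.6 and a median width of 284 bp, so the exclusive ones were not wider than these. The exclusive peaks on chrUn_random also lay close to other peaks of the list. Their median gap to the next peak, exclusive or shared, was 268 bp, against 24348 bp on the autosomes. It was not compared with the gap of the shared peaks on this sequence. How reads that map to several places were treated is not given in the sources used here, and its part in these counts was not tested. On the other random sequences of the assembly together, 20 of 92 peaks were exclusive (21.7%, 14.5 to 31.2%). Among these, chrY_random had 12 of 39 (30.8%, 18.6 to 46.4%), chr1_random 2 of 17 (11.8%) and chr8_random 2 of 21 (9.52%). With chromosomes 1 to 19 and X alone, 2129 exclusive sites were left (9.49%).

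**Figure D5:**
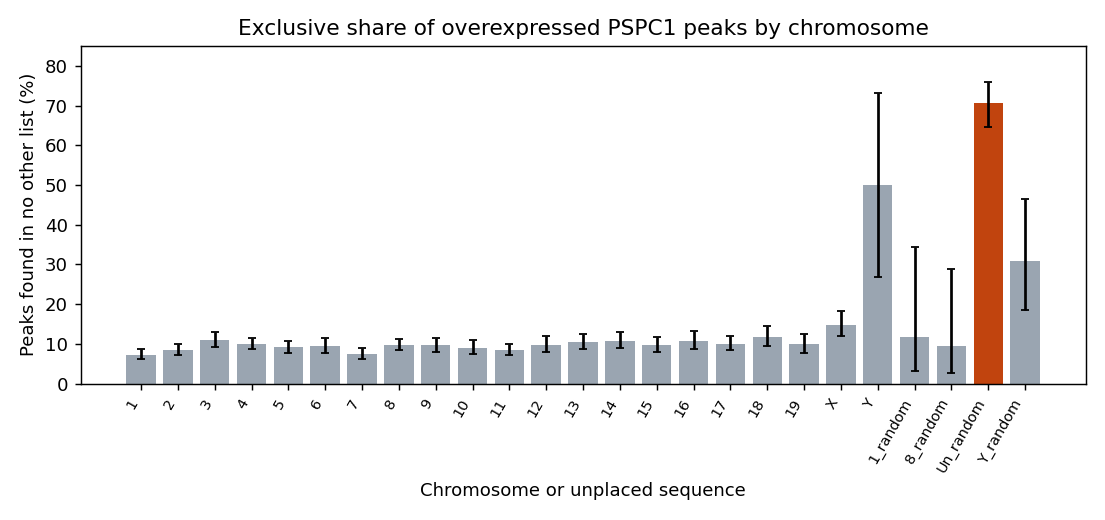
Share of overexpressed PSPC1 peaks found in no other list (%, vertical axis) for each chromosome or unplaced sequence with at least 10 peaks (horizontal axis), with Wilson 95% intervals. The autosomes lie between 7.30 and 11.8%, chromosome X at 14.8%, and chrUn_random, in orange, at 70.6%. Chromosome Y lies at 50.0% on 14 peaks and chrY_random at 30.8% on 39 peaks.

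By windows of 1 Mb, the 3 densest were all on chrUn_random. From 5000001 to 6000000 it held 80 exclusive peaks, with scores from 51.4 to 857.7 and a median of 135.2, beside 94 overexpressed PSPC1 peaks in all and 3 to 9 peaks in each other list. The window from 4000001 to 5000000 held 50 of 74, and that from 3000001 to 4000000 held 32 of 54. The next windows were on chromosome 8. chr8:73000001-74000000 held 15 exclusive peaks among 70 overexpressed PSPC1 peaks, with 38 and 54 knock-in peaks, and chr8:126000001-127000000 held 13 among 44, with 42 and 38 knock-in peaks. In the first of these the exclusive peaks had a median width of 218 bp and a median score of 63.4, near those of all exclusive peaks, and in the second they were wider, at 772 bp, with a median score of 64.3 and a highest score of 96.2. Both windows on chromosome 8 were thus rich in knock-in peaks, while those on chrUn_random held at most 12 and 8.

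Over the 2648 windows of 1 Mb on chromosomes 1 to 19 and X, 1256 held an exclusive peak, of which 745 held 1, 319 held 2 and 192 held 3 or more. Windows with more shared peaks of overexpressed PSPC1 also held more exclusive ones, with Spearman's rho of 0.42 and Pearson's r of 0.46 across the 2648 windows. This is a description of 1 library: both counts come from the same reads, and windows are not independent replicates. In 54 of the 1256 windows with an exclusive peak, the library had no shared peak.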

How the data were processed

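Of 58 samples, the 9 with a peak list were used, and 49 were not analysed here. The authors deposited 1 list per library with a score per peak of unstated unit. Peak names carry the caller name MACS, per the file contents. The build mm9 and the tools CASAVA, Bowtie2 and TopHat are listed by the submitters' processing notes, with no role. The caller version, threshold, control and handling of repeated sequence are not given in the sources used here. Read depth is unknown, which limits every count of peaks.

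Peaks sharing at least 1 bp were merged over all lists. Distances are gaps between peak ends. Shares carry Wilson intervals and medians carry binomial order-statistic intervals, both at 95%. Regions were named by rule: the 10 highest scores, the 5 widest, the 5 farthest from knock-in peaks, the 5 windows of 1 Mb with most members, and 3 on each side of the rule's edge. Members, comparisons and lists were chosen with earlier results of these data known. The procedure was checked on simulated data: 200 of 200 planted exclusive peaks and 200 of 200 peaks planted with a 1 bp overlap were classed rightly. Genes, GC content and sequences were not analysed, as no annotation or genome of mm9 was used here. There were 11 alternatives. Scripts ran in Python 3.11.15 with pandas 2.3.3, intervals used scipy 1.17.1 and numpy 2.4.6, and plots were drawn in matplotlib 3.10.9.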

Additional observations from a re-analysis of the deposited data

How the results depend on the processing

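Read depth is unknown, and scores of separate libraries may not be on 1 scale, so a site missing from a list may lie under that list's minimum. No paired analysis was possible because overexpressed PSPC1 has 1 list and its sites were not compared by a test. Except where stated, the values that follow moved beyond the 95% interval of the reported value, or, for the number of sites, by more than 1.5 times. Direct overlap changed nothing. Coverage of at least 50% of the peak gave a share of 10.6%. Extending the other lists by 500 bp gave 9.41%, and by 5000 bp 1402 sites, 6.15%, a median width of 191 bp and a median knock-in distance of 42776 bp. A score of at least 50 in all lists gave 11.5%, 209 bp and 51671 bp. Fewer peaks entered by construction with a score of at least 100 (1253 sites, 12.9%, 346 bp, a median score of 139.7 and 109815 bp) and with 6670 peaks per list, those of highest score (963 sites, 14.4%, 425 bp, a median score of 179.2 and 79970 bp). Of the 963 sites, 321 were among the 2324, and of the 1253, 505 were. Chromosomes 1 to 19 and X gave 9.49%, a median score of 61.7 and 24970 bp. Without the UTP6 list there were 4512 sites, 19.8%, 219 bp, a median score of 64.6 and 24149 bp. Leaving out 1 knock-in library gave 11.1 to 11.5%, median widths of 207 to 211 bp, of which the 207 bp without replicate 1 stayed within the interval, and median distances of 34239 to 43978 bp. It left the number of sites (2522 to 2623) within 1.5 times and the median score (63.4 to 63.8) within its interval. The cause of these moves was not tested where the construction does not give it. The exclusive share of the narrow, high-scoring peaks, with alternatives added after seeing the data, stayed within its interval under 9 of 11, and was 53.8% with other lists extended by 5000 bp and 76.1% with scores of at least 100.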
